A study of Mus musculus with 12 samples.

Results

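The 45 genes described here are transcribed in dividing cells. They were listed by symbol, by a rule that uses no measured value, though with earlier results of these data known. The list holds 17 S-phase members, which license, fuel and carry out DNA replication. The other 28 are mitotic members, which build and run the spindle, the kinetochores and the machinery of cell separation. All 45 were found among 54532 gene rows, and all 45 were among the 19822 genes that passed the filter on low counts. RNA labelled as mouse striatum was sequenced 7 and 14 days after ischemic stroke in C57BL/6J wild-type (WT) mice and in mice deficient in cGAS (cGAS-KO) or STING (STING-KO), lines made with CRISPR-Cas9 on that background. cGAS is an enzyme that senses DNA in the cytosol, and STING is the adaptor protein switched on by the product of cGAS. Each of the 6 groups of day and genotype held 2 libraries, 12 in all. Every group had a stroke, so no group serves as an uninjured baseline. The labels give neither age nor sex, and they do not say whether the libraries of a group came from separate mice, so p-values measure only the spread between these libraries, which may be technical.

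Genes of the division cycle are switched on in waves. Mitogens raise D-type cyclins, which with Cdk4 and Cdk6 inactivate the retinoblastoma proteins and free the E2F factors. E2F factors drive cyclin E and the S-phase genes, and later the complex of MuvB with B-Myb and then with Foxm1 drives the mitotic genes. In non-dividing cells the DREAM complex, built from the same MuvB core, holds both waves down. Adult neurons do not divide, whereas microglia, invading leukocytes, fibroblasts, endothelium, astrocytes and oligodendrocyte precursors can divide in the brain after a stroke.

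Library totals ran from 15956242 to 22126213 counts, so that 3 counts in a library, taken as the floor, equal 0.133 to 0.195 CPM (counts scaled to a library total of 1000000), which covers counting error only. The transcripts of the targeted genes did not follow the labels at day 7. Cgas read 3.25 and 2.97 CPM in the WT pair and 5.55 and 5.66 CPM in the pair labelled cGAS-KO, and Tmem173, the gene of STING, read 2.80 and 2.71 CPM in the WT pair and 20.9 and 23.8 CPM in the pair labelled STING-KO. At day 14 Cgas read 12.6 and 7.68 CPM in WT against 4.09 and 6.15 CPM with the cGAS-KO label, and Tmem173 read 22.3 and 20.8 CPM in WT against 2.40 and 5.21 CPM with the STING-KO label. The labels do not say which part of either gene was changed. Genotype names are therefore used as labels below, and each direction is one between libraries so labelled. The tissue label was also checked, against genes picked after their values were seen. The summed level of 7 genes of striatal neurons (Drd1, Drd2, Ppp1r1b, Penk, Tac1, Adora2a and Rgs9) was 94.7 to 109 CPM in the 7-day WT libraries, 95.0 to 338 CPM in the other 7-day libraries, 407 to 1629 CPM in the 14-day WT and cGAS-KO libraries and 2731 to 3126 CPM in the 14-day STING-KO libraries. The summed level of 6 genes of cortical excitatory neurons, led by Slc17a7, was 1511 to 1791 CPM in the 7-day WT libraries, 170 to 589 CPM in the other groups apart from 14-day STING-KO, and 29.5 to 78.6 CPM in 14-day STING-KO. The 7-day WT and 14-day STING-KO libraries lie at opposite ends of both sums. The part of this difference in the results below was not tested.

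Both waves of cell cycle genes were lowest in the 7-day WT libraries, highest in the 7-day libraries labelled cGAS-KO or STING-KO, and intermediate at day 14. The mean log2 CPM of the 28 mitotic members was -0.13 and -0.05 in the 7-day WT libraries, 4.34 and 4.17 in 7-day cGAS-KO, and 4.49 and 4.43 in 7-day STING-KO. At day 14 it was 3.39 and 3.07 in WT, 3.20 and 2.57 in cGAS-KO, and 2.41 and 1.84 in STING-KO. The 17 S-phase members followed the same order over a narrower range, with 2.26 and 2.34 in 7-day WT, 4.70 and 4.52 in 7-day cGAS-KO, and 4.71 and 4.75 in 7-day STING-KO. Their means at day 14 were 3.68 and 3.33 in WT, 3.36 and 3.15 in cGAS-KO, and 2.78 and 2.64 in STING-KO. In the 7-day WT libraries the S-phase mean therefore lay 2.39 and 2.38 above the mitotic mean. In the other 10 libraries it lay 0.16 to 0.80 above, where the spread of this difference within groups (pooled SD) was 0.18. The size of this difference within 1 library also reflects gene length, so only its change between libraries is read.

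**Figure D1:**
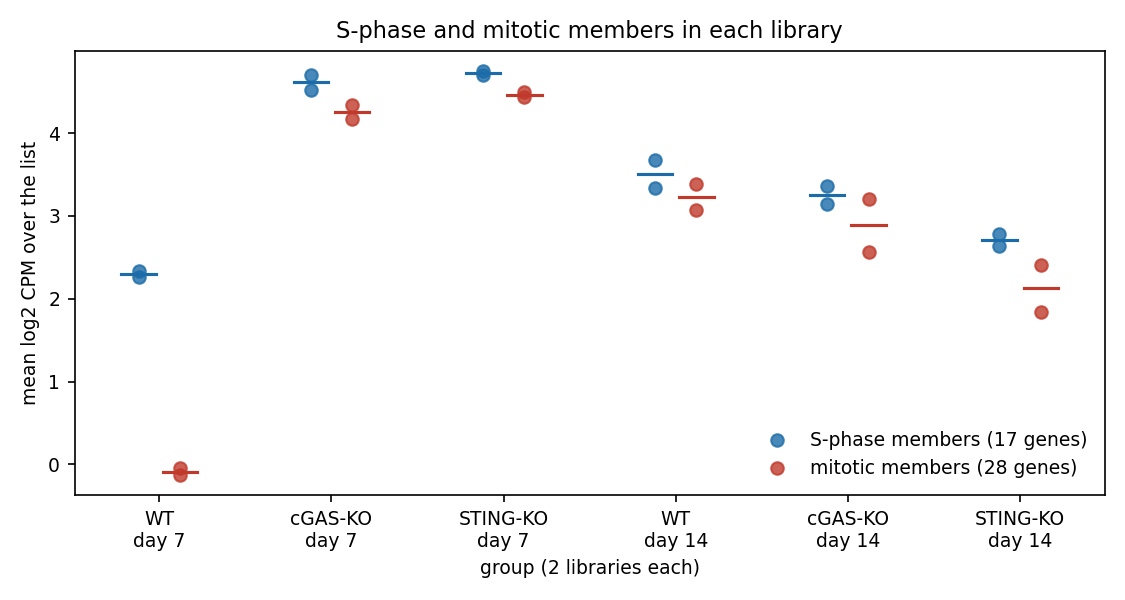
Mean log2 CPM (vertical axis) of the S-phase members (blue) and the mitotic members (red) in each library, by group; points are single libraries and short lines are the means of 2. The mitotic mean lay near 0 in 7-day WT and above 4 in both 7-day groups labelled knockout, while the S-phase mean spanned 2.26 to 4.75.

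In bulk tissue, fewer dividing cells and less of these transcripts per cell cannot be told apart. The depth also limits what is known of the low end. In the 7-day WT libraries 9 of the 28 mitotic members lay in both libraries under 0.565 CPM, the level the low-count filter corresponds to, and 10 had fewer than 10 counts in a library. These 9 (Cdk1, Ccnb1, Bub1, Aurkb, Ube2c, Pbk, Ttk, Melk and Ncapg) entered the tests only through groups in which they were high, so they had to differ from 7-day WT. Top2a (0.505 and 0.614 CPM), Birc5 (0.841 and 0.511 CPM) and Cenpf (0.561 and 1.02 CPM) lay under that level in only 1 of the 7-day WT libraries. They may have entered the tests in the same way. For all of these, changes against 7-day WT are given below as sizes with no p. Counts and medians are also given without the 9, but still with Top2a, Birc5 and Cenpf. The lowest member count was 1, for Ube2c in a 7-day WT library, and no member had a count of 0 in any library. Among the S-phase members the lowest count in 7-day WT was 16.

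The promoters of both classes differ in the short words that factors of these waves bind. Of the 45 members, 36 have an entry in the RefSeq promoter table (GRCm38.p6; 250 bases before to 50 after the start), 14 S-phase and 22 mitotic. They were searched on both strands for the cell cycle homology region (CHR; TTTGAA or TTCGAA), to which the MuvB core binds, for the CCAAT box (CCAAT), the site of NF-Y, and for E2F sites (TTGGCGC or TTCCCGC or TTGCCGC or TTCGCGC). E2F words can overlap each other, and the inverse of TTGGCGC can share bases with CCAAT. A gene counted if any promoter listed for it held the word. A CHR was found for 17 of 22 mitotic members (77.3%), for 2 of 14 S-phase members (14.3%) and 21.7% of all 27025 genes listed. A CHR together with a CCAAT box was found in the same counts of members (17 of 22 and 2 of 14). This held for 9.65% of all genes listed. E2F words were found for 4 of 22 mitotic members (18.2%), 8 of 14 S-phase members (57.1%) and 10.9% of all genes listed. The sequences below, 5′ to 3′ on the strand of the gene and ending at the start site, show the mitotic arrangement (Cdk1, Top2a, Ube2c and Kif11), the S-phase arrangement (Mcm5 and Mcm6) and Ccne1, the S-phase member whose values below depart most from the rest. Capitals mark the words searched, in either orientation.
Cdk1 (chr10:69352913-69353062, - strand): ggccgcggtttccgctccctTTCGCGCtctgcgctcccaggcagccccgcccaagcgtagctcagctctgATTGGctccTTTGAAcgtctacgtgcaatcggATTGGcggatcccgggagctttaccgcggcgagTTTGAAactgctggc
Top2a (chr11:99024190-99024389, - strand): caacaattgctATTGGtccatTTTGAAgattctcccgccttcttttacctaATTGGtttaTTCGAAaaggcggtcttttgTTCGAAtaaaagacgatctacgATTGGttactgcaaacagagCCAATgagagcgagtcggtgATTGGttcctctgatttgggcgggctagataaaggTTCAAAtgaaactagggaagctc
Ube2c (chr2:164769829-164769928, + strand): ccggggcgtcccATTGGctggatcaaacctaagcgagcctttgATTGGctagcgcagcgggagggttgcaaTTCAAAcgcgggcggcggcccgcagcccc
Kif11 (chr19:37376282-37376381, + strand): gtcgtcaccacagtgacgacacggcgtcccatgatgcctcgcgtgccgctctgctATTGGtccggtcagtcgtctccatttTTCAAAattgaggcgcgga
Mcm5 (chr8:75109309-75109508, + strand): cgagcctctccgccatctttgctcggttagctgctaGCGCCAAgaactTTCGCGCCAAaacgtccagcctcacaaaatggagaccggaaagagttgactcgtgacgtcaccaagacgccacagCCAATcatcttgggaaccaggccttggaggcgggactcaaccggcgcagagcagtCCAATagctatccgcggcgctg
Mcm6 (chr1:128359706-128359855, - strand): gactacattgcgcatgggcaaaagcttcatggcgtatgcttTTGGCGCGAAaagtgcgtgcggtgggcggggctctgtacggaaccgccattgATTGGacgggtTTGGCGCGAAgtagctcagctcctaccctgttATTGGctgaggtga
Ccne1 (chr7:38107491-38107640, - strand): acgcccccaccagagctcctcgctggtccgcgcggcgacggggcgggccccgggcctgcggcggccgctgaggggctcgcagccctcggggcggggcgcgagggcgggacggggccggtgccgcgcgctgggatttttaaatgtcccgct
Cdk1 and Top2a carry several CHR words beside inverted CCAAT boxes (ATTGG), and Cdk1 has an E2F word as well. Ube2c and Kif11 each show a single inverted CHR (TTCAAA) downstream of ATTGG. Mcm5 and Mcm6 show no CHR, and some of their E2F words overlap each other on opposite strands. The printed stretch of Ccne1 holds none of the words, which says only that these letters are not in it.

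Among the S-phase members Ccne1 and Ccne2, regulators that open S phase, departed most from the common order. E2f1, a further such regulator, kept that order except that its lowest group mean was in 14-day STING-KO. E2f1, the activating E2F factor, had 7.01 and 8.79 CPM in 7-day WT, 25.1 and 28.8 CPM in cGAS-KO and 27.1 and 29.3 CPM in STING-KO. At day 14 it had 9.93 and 11.9 CPM (WT), 9.70 and 9.08 CPM (cGAS-KO) and 4.26 and 8.27 CPM (STING-KO). E2f1 thus stood higher in both 7-day groups labelled knockout than in any other library, and its 14-day STING-KO libraries lay below the other 4 libraries of that day. Ccne1 and Ccne2 encode cyclin E, the partner of Cdk2 at the start of replication. Ccne1 had 12.7 and 14.8 CPM in 7-day WT, 9.17 and 10.2 CPM in cGAS-KO and 11.8 and 12.8 CPM in STING-KO, and 4.09 to 4.77 CPM in all 6 libraries of day 14. Its level followed the day and not the groups in which the other members were high, with every 7-day library above every 14-day library. Ccne2 had 6.73 and 10.3 CPM in 7-day WT and 8.33 and 8.80 CPM in cGAS-KO, 8.78 and 8.79 CPM in STING-KO, and 5.39 to 11.7 CPM at day 14. Its groups overlapped widely, and it passed the test in none of 9 comparisons between groups. Reads of Ccne2 may include some of Ints8 on the opposite strand, since whether counting used strand is not given.

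The licensing genes load the Mcm2 to Mcm7 helicase onto origins. Mcm5 had 4.15 and 4.70 CPM in 7-day WT, 42.0 and 34.0 CPM in cGAS-KO and 37.8 and 37.0 CPM in STING-KO. At day 14 Mcm5 had 14.8 and 11.3 CPM (WT), 15.4 and 10.5 CPM (cGAS-KO) and 7.56 and 8.92 CPM (STING-KO). At day 7 Mcm2 had 5.89 and 5.78 CPM (WT), 35.6 and 34.7 CPM (cGAS-KO) and 34.1 and 39.5 CPM (STING-KO). At day 14 Mcm2 had 17.4 and 11.9 CPM (WT), 12.9 and 8.94 CPM (cGAS-KO) and 6.84 and 6.25 CPM (STING-KO), so both subunits were lowest in 7-day WT, with 14-day STING-KO next. Mcm3 covered the widest range among the helicase subunits, an 18.9-fold ratio between its highest and lowest group means, against 3.22-fold for Mcm4 and 3.04-fold for Mcm7. Mcm4 did not share the low level of 14-day STING-KO, where it had 31.1 and 21.4 CPM against 23.1 and 20.9 CPM in 14-day WT. Mcm7 shares exon bases with Cops6 and Ap4m1 on the opposite strand, which makes its level uncertain. Cdc6, which with Cdt1 recruits the helicase had at day 7 0.897 and 1.07 CPM (WT), 6.03 and 5.76 CPM (cGAS-KO) and 5.05 and 6.94 CPM (STING-KO). At day 14 it had 3.33 and 2.69 CPM (WT), 3.52 and 2.41 CPM (cGAS-KO) and 1.74 and 1.11 CPM (STING-KO), with STING-KO below both other groups. Cdt1 was the licensing factor with the lowest 14-day STING-KO level relative to its peak, with 33.3 and 32.3 CPM at day 7 and 1.80 and 2.73 CPM at day 14. Gins2, a subunit of the active helicase, overlaps Gse1 on the opposite strand over 2758 bases, and its values are uncertain for that reason.

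Enzymes that supply nucleotides spanned more than the replication clamp. Rrm2, the ribonucleotide reductase subunit made in S phase, had 1.57 and 1.43 CPM in 7-day WT, 48.3 and 34.2 CPM in cGAS-KO and 42.9 and 45.8 CPM in STING-KO. At day 14 Rrm2 had 23.6 and 15.5 CPM (WT), 16.9 and 11.9 CPM (cGAS-KO) and 10.7 and 7.62 CPM (STING-KO). Its highest group mean was 29.6-fold its lowest, the widest ratio of the S-phase members. Tk1, the thymidine kinase of dividing cells, had at day 7 1.85 and 1.99 CPM (WT), 30.9 and 23.7 CPM (cGAS-KO) and 36.3 and 34.2 CPM (STING-KO). At day 14 Tk1 had 7.54 and 5.82 CPM (WT), 4.54 and 4.16 CPM (cGAS-KO) and 2.04 and 2.02 CPM (STING-KO). The Tk1 level in 14-day STING-KO lay near that in 7-day WT, a group of another day and label. Tyms, thymidylate synthase, had at day 7 3.03 and 3.27 CPM (WT), 12.7 and 14.5 CPM (cGAS-KO) and 15.3 and 13.4 CPM (STING-KO). At day 14 Tyms had 6.95 and 5.87 CPM (WT), 4.94 and 5.54 CPM (cGAS-KO) and 2.88 and 3.52 CPM (STING-KO). Pcna, the sliding clamp that DNA repair uses too, varied less. At day 7 it had 37.0 and 35.4 CPM (WT), 124 and 106 CPM (cGAS-KO) and 134 and 140.2 CPM (STING-KO). At day 14 Pcna had 66.7 and 58.2 CPM (WT), 63.3 and 62.9 CPM (cGAS-KO) and 61.9 and 40.2 CPM (STING-KO), a 3.79-fold ratio between highest and lowest group means. Hells, a chromatin remodeller of replicating DNA, had 2.80 and 4.70 CPM in 7-day WT and 5.54 to 15.8 CPM in all other libraries.

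Among the mitotic cyclins and their kinase, Cdk1 and Ccnb1 had at most 7 counts in a 7-day WT library, while Ccna2 had 50 and 26 and Ccnb2 25 and 17. Cdk1, the kinase that drives entry into mitosis, had 0.280 and 0.153 CPM in 7-day WT (5 and 3 counts), 28.7 and 23.6 CPM in cGAS-KO and 36.2 and 30.2 CPM in STING-KO. At day 14 Cdk1 had 8.70 and 7.85 CPM (WT), 9.43 and 6.10 CPM (cGAS-KO) and 2.16 and 3.19 CPM (STING-KO). The ratio between highest and lowest group means was 153-fold for Cdk1, 147-fold for Ube2c and 137-fold for Top2a, and these ratios rest on low counts in 7-day WT. The partner of Cdk1, Ccnb1, cyclin B1, had at day 7 0.337 and 0.358 CPM (WT), 22.7 and 17.96 CPM (cGAS-KO) and 22.4 and 25.6 CPM (STING-KO). At day 14 Ccnb1 had 13.1 and 10.4 CPM (WT), 11.3 and 5.91 CPM (cGAS-KO) and 7.38 and 3.13 CPM (STING-KO). Ccna2, cyclin A2, which acts in S phase and G2, had at day 7 2.80 and 1.33 CPM (WT), 31.1 and 28.7 CPM (cGAS-KO) and 36.3 and 26.9 CPM (STING-KO). At day 14 Ccna2 had 13.9 and 9.33 CPM (WT), 13.1 and 10.3 CPM (cGAS-KO) and 12.8 and 6.71 CPM (STING-KO). The 14-day groups of Ccna2 overlapped. Foxm1, the transcription factor of the mitotic wave, had at day 7 1.68 and 2.35 CPM (WT), 28.6 and 28.5 CPM (cGAS-KO) and 32.8 and 32.7 CPM (STING-KO). At day 14 Foxm1 had 14.6 and 14.5 CPM (WT), 15.1 and 11.97 CPM (cGAS-KO) and 4.80 and 5.21 CPM (STING-KO), with STING-KO below both other groups. Ccnb2 has a transcribed pseudogene, Ccnb2-ps, with a mean of 119.5 counts a library, so reads may be split between them, and Ccna2 shares exon bases with Exosc9 on the opposite strand.

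The mitotic kinases were low in 7-day WT to different degrees. Aurkb, the kinase that corrects faulty kinetochore attachments, had 0.280 and 0.307 CPM in 7-day WT, 17.3 and 18.4 CPM in cGAS-KO and 19.7 and 17.4 CPM in STING-KO. At day 14 Aurkb had 5.90 and 6.92 CPM (WT), 5.12 and 4.49 CPM (cGAS-KO) and 2.04 and 1.498 CPM (STING-KO). Its 14-day STING-KO libraries lay below every other library except those of 7-day WT. Plk1, polo-like kinase 1, had at day 7 1.46 and 2.05 CPM (WT), 16.4 and 16.2 CPM (cGAS-KO) and 23.9 and 21.2 CPM (STING-KO). At day 14 Plk1 had 7.54 and 4.39 CPM (WT), 3.87 and 5.39 CPM (cGAS-KO) and 4.199 and 2.67 CPM (STING-KO). Bub1b, which encodes the spindle checkpoint protein BubR1, was the only mitotic member with its lowest group mean in 14-day STING-KO, at 1.92 and 1.95 CPM against 3.31 and 3.22 CPM in 7-day WT. Melk went the other way, with 4.62 and 3.19 CPM in 14-day STING-KO, 3.45 and 3.46 CPM in 14-day WT and 0.449 and 0.307 CPM in 7-day WT. Bub1 and Ttk, both checkpoint kinases, and Pbk had 0.112 to 0.511 CPM in the 7-day WT libraries.

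Genes of centromeres and condensed chromosomes include the usual markers of division. Mki67, whose protein Ki-67 coats mitotic chromosomes and is the usual stain for dividing cells, had 3.48 and 4.09 CPM in 7-day WT, 88.3 and 89.4 CPM in cGAS-KO and 126 and 110.1 CPM in STING-KO. At day 14 Mki67 had 38.0 and 33.1 CPM (WT), 38.0 and 22.9 CPM (cGAS-KO) and 14.9 and 14.8 CPM (STING-KO). For Mki67 1 of the 14-day cGAS-KO libraries was level with a WT library and the other lay between WT and STING-KO. Top2a, the topoisomerase that untangles sister chromatids, had 0.505 and 0.614 CPM in 7-day WT, 73.8 and 66.4 CPM in cGAS-KO and 78.9 and 74.4 CPM in STING-KO. At day 14 Top2a had 51.0 and 39.0 CPM (WT), 48.1 and 26.7 CPM (cGAS-KO) and 26.3 and 15.1 CPM (STING-KO), with 1 cGAS-KO library close to WT and the other close to a STING-KO library. Birc5, which encodes survivin of the chromosomal passenger complex, had at day 7 0.841 and 0.511 CPM (WT), 25.9 and 19.7 CPM (cGAS-KO) and 29.4 and 27.3 CPM (STING-KO). At day 14 Birc5 had 9.76 and 5.82 CPM (WT), 6.99 and 3.50 CPM (cGAS-KO) and 3.96 and 2.08 CPM (STING-KO). Cenpa, Cenpe, Cenpf and the condensin subunit Ncapg followed the same order of group means, with 0.102 to 2.30 CPM in 7-day WT and 7.18 to 36.9 CPM in both 7-day groups labelled knockout.

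Spindle and exit genes completed the pattern. Cdc20, the activator of the anaphase-promoting complex, had 0.897 and 1.59 CPM in 7-day WT, 20.9 and 17.7 CPM in cGAS-KO and 21.4 and 20.3 CPM in STING-KO. At day 14 Cdc20 had 6.13 and 4.28 CPM (WT), 6.90 and 4.83 CPM (cGAS-KO) and 3.42 and 1.95 CPM (STING-KO). Ube2c, the ubiquitin-conjugating enzyme of that complex, had 0.0561 and 0.307 CPM in 7-day WT, which are 1 and 6 counts, 22.9 and 22.5 CPM in cGAS-KO and 27.8 and 25.4 CPM in STING-KO. At day 14 Ube2c had 14.8 and 12.5 CPM (WT), 14.2 and 8.14 CPM (cGAS-KO) and 4.56 and 2.80 CPM (STING-KO), with STING-KO below both other groups. The kinesins and microtubule binders Kif20a, Prc1 and Nusap1 kept the narrowest ratios of the mitotic members between highest and lowest group means, 5.40-fold, 4.80-fold and 4.33-fold. All 3 share exon bases with an expressed gene on the opposite strand (Cdc23, Rccd1 and Oip5), and so does Cdc20 (Elovl1).

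**Figure D2:**
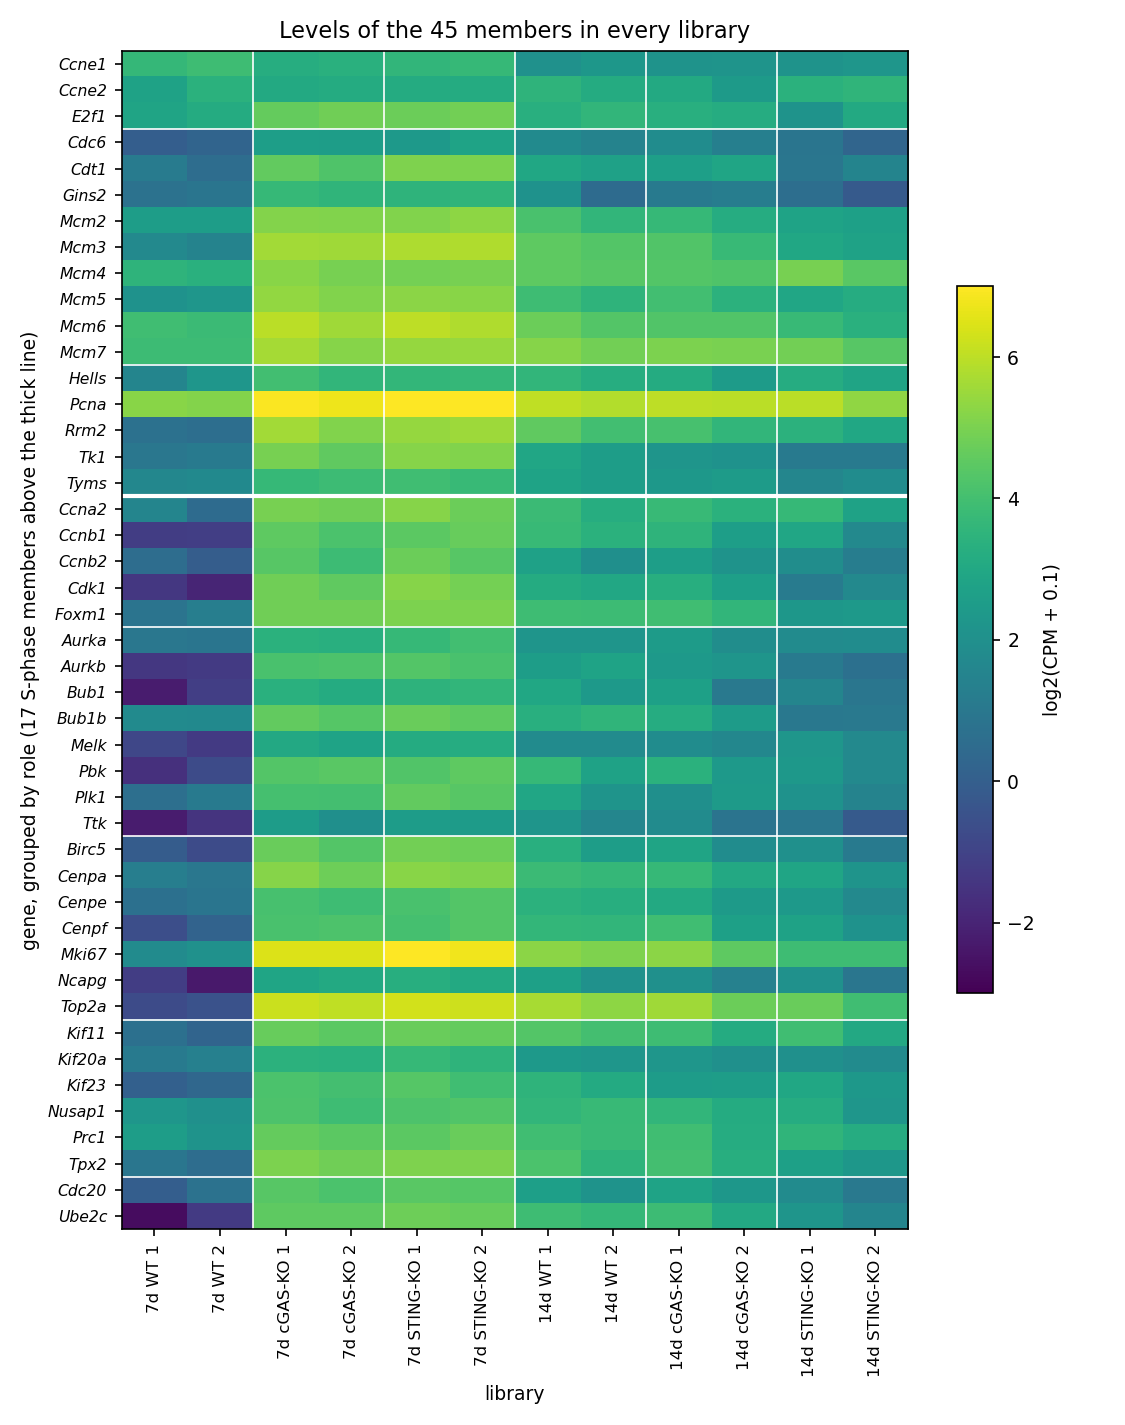
Levels of the 45 members (rows, grouped by role) in the 12 libraries (columns) as log2(CPM + 0.1), dark for low and yellow for high. Most mitotic rows are darkest in the 7-day WT columns and brightest in the 7-day cGAS-KO and STING-KO columns, while Ccne1 and Ccne2 are not.

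Ranked by group mean, all 28 mitotic members were highest in 7-day STING-KO and second in 7-day cGAS-KO, and 27 were lowest in 7-day WT. Of the 17 S-phase members 11 were highest in 7-day STING-KO and 4 in 7-day cGAS-KO, and 12 were lowest in 7-day WT. Neither these ranks nor the replicate counts below were made over all genes, so they describe the members only. The neighbours at the top of this order, both 7-day groups labelled knockout, did not differ in any member by the test given below. Replicates of a group were not equally close. In 14-day cGAS-KO, replicate 1 exceeded replicate 2 in 26 of 28 mitotic members (median ratio 1.60), and in 14-day STING-KO in 24 of 28 (1.58). The median ratio was 0.93 to 1.21 in the other 4 groups. There replicate 1 was higher in 23 of 28 mitotic members in 14-day WT and in 7-day cGAS-KO. It was higher in 13 in 7-day WT and in 18 in 7-day STING-KO. Among S-phase members the median ratio was highest in 14-day WT, at 1.26, with 15 of 17 higher in replicate 1. It was 1.07 in 14-day cGAS-KO and 1.14 in 14-day STING-KO.

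**Figure D3:**
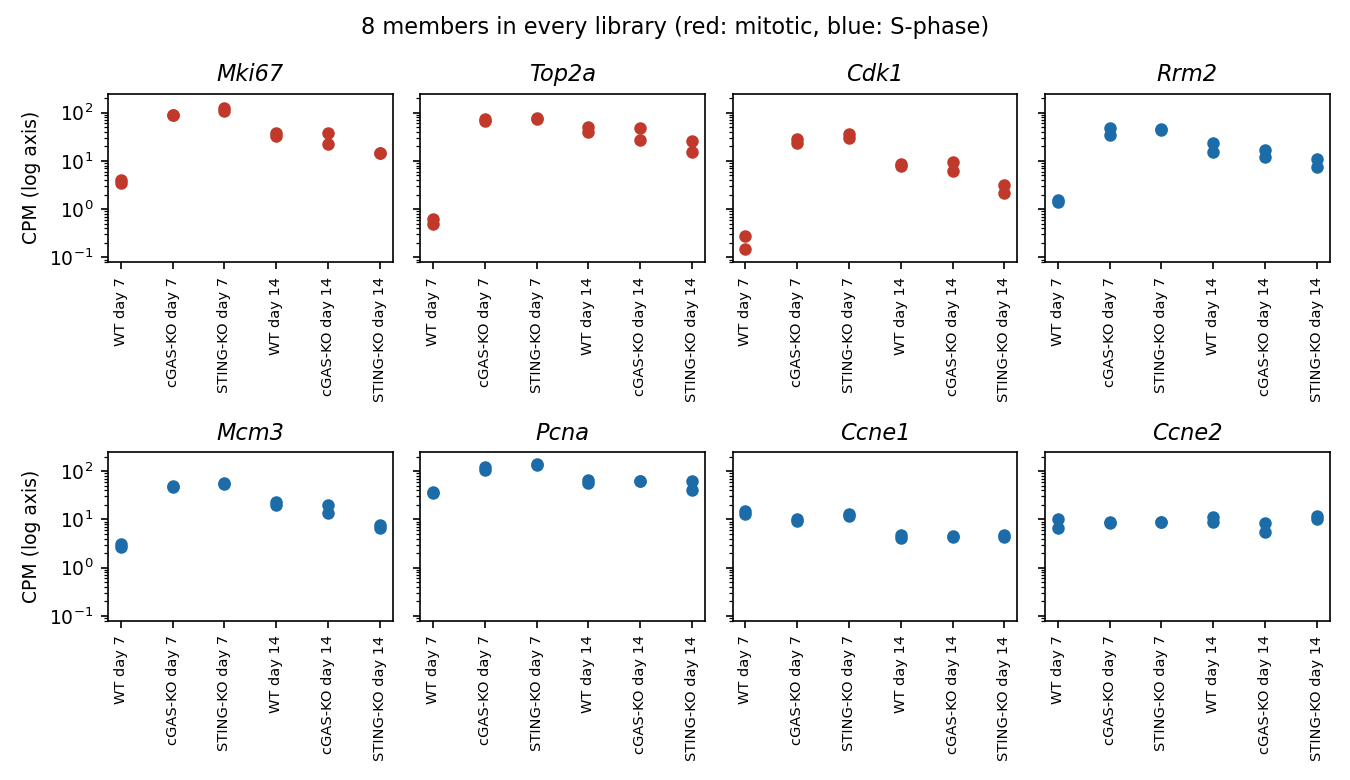
CPM (log axis) of 8 members in each of the 12 libraries, by group; each point is 1 library, red for mitotic and blue for S-phase genes. Mki67, Top2a, Cdk1, Rrm2 and Mcm3 run from low in 7-day WT to high in the 7-day groups labelled knockout, Pcna over a narrower range, and Ccne1 steps down between days in all 3 genotypes.

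The series sets each deficiency against WT on each day. Changes were tested with the quasi-likelihood F-test of edgeR, and p-values were adjusted by the Benjamini-Hochberg method over all 19822 genes, with a threshold of 0.05. At day 7, 43 of the 45 members were higher and 1 was lower in cGAS-KO than in WT. Among all genes tested 27.8% were higher and 22.4% lower, 50.3% in all. The median log2 change was 4.23 for the mitotic members, of which 28 of 28 were higher, and 2.11 for the S-phase members, of which 15 of 17 were higher, beside 0.04 for all genes. The mitotic members with the largest log2 changes ± SE were Top2a (6.95 ± 0.44), Cdk1 (6.89 ± 0.41), Ube2c (6.87 ± 0.49) and Aurkb (5.89 ± 0.33). Without the 9 members low in 7-day WT, 19 of 19 mitotic members were higher, with a median of 3.93. Ube2c rests on 7 counts in WT, and its log2 change ran from 6.16 to 8.50 as single libraries were left out. The S-phase members with the largest were Rrm2 (4.77 ± 0.33, adjusted p = 7.27e-07), Mcm3 (4.05 ± 0.22, adjusted p = 2.48e-07), Tk1 (3.82 ± 0.24, adjusted p = 4.39e-07) and Cdt1 (3.61 ± 0.28, adjusted p = 1.45e-06). Mki67 was higher by 4.55 ± 0.25 and Pcna by 1.67 ± 0.19. Ccne1 was the member called lower (-0.51 ± 0.20, adjusted p = 0.0499). That call did not survive the loss of any of the 4 libraries in turn: the adjusted p then ran from 0.063 to 0.285. Ccne2 had a log2 change of 0.01 ± 0.27, adjusted p = 0.987.

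The 7-day STING-KO libraries, set against the same WT libraries, gave 43 members higher and 0 lower, where 26.3% of all genes were higher and 22.6% lower (48.9% in all). Their median log2 change was 4.39 for the mitotic members (28 of 28 higher) and 2.18 for the S-phase members (15 of 17 higher), beside 0.03 for all genes. Without the 9 members low in 7-day WT, 19 of 19 mitotic members were higher, with a median of 4.05. Cdk1 (7.23 ± 0.40), Ube2c (7.10 ± 0.49), Top2a (7.08 ± 0.44) and Ccnb1 (6.08 ± 0.54) led the mitotic members, and Ube2c ran from 6.38 to 8.73 as single libraries were left out. Rrm2 (4.88 ± 0.33, adjusted p = 5.71e-07), Mcm3 (4.24 ± 0.22, adjusted p = 1.53e-07), Cdt1 (4.23 ± 0.28, adjusted p = 4.67e-07) and Tk1 (4.19 ± 0.24, adjusted p = 1.94e-07) led the S-phase members. Ccne1 had -0.16 ± 0.19, adjusted p = 0.511 and Ccne2 0.04 ± 0.27, adjusted p = 0.909. Both comparisons share the WT libraries, so their likeness is not a separate result. Directly against each other, the 7-day cGAS-KO and STING-KO libraries differed in 0 members, where 0.161% of all genes passed (0.0858% higher and 0.0757% lower). DESeq2 also called 0 members, and 2 members had an unadjusted p below 0.05. These 2 were Cdt1 (-0.61 ± 0.22, adjusted p = 0.364) and Aurka (-0.50 ± 0.23, adjusted p = 0.552), both with the lower value in cGAS-KO. The median log2 change was -0.07 for S-phase and -0.19 for mitotic members, and the SE of single members ran up to 0.39.

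At day 14 the cGAS-KO and WT libraries differed in 0 members, where 0.0303% of all genes passed, all of them lower. Medians were -0.27 for S-phase and -0.28 for mitotic members, beside -0.01 for all genes. DESeq2 also called 0 members, and 3 had an unadjusted p below 0.05, all with the lower value in cGAS-KO. They were Kif23, a kinesin of the cleavage furrow (-0.77 ± 0.26, adjusted p = 0.342), Tk1 (-0.61 ± 0.23, adjusted p = 0.368) and Bub1b (-0.57 ± 0.24, adjusted p = 0.424). In 14-day STING-KO 27 members were lower than in WT and 0 higher, where 17.4% of all genes were lower and 16.5% higher (33.9% in all). These were 17 of 28 mitotic members (median -1.15) and 10 of 17 S-phase members (median -0.99), beside a median of -0.03 for all genes. The largest log2 changes were those of Bub1b (-2.46 ± 0.30, adjusted p = 0.000154), Ube2c (-1.88 ± 0.32, adjusted p = 0.00104), Aurkb (-1.85 ± 0.27, adjusted p = 0.000395) and Cdk1 (-1.63 ± 0.30, adjusted p = 0.00149) among mitotic members. Among S-phase members they were those of Tk1 (-1.71 ± 0.26, adjusted p = 0.000564), Cdt1 (-1.65 ± 0.30, adjusted p = 0.00143), Mcm3 (-1.57 ± 0.20, adjusted p = 0.000235) and Mcm2 (-1.16 ± 0.24, adjusted p = 0.00339). Ccna2, Kif11, Melk, Pcna, Mcm4, Mcm7 and Hells were among the members that did not pass, with Melk at 0.18 ± 0.29, adjusted p = 0.654 and Mcm4 at 0.26 ± 0.20, adjusted p = 0.336. The count rested in part on single libraries: it was 13 without WT replicate 1, 15 without STING-KO replicate 2 and 18 when only the 4 libraries compared entered the fit.

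Between both labelled knockouts at day 14, 18 members were higher in cGAS-KO than in STING-KO and 0 lower, where 18.2% of all genes were higher and 17.7% lower (35.9% in all). They were 10 of 28 mitotic and 8 of 17 S-phase members, with medians of 0.81 and 0.66 beside 0.04 for all genes. Bub1b (1.90 ± 0.30, adjusted p = 0.000831), Ube2c (1.60 ± 0.32, adjusted p = 0.0029), Cdk1 (1.55 ± 0.29, adjusted p = 0.00207) and Foxm1 (1.44 ± 0.20, adjusted p = 0.000462) had the largest changes among mitotic members. Cdt1 (1.57 ± 0.29, adjusted p = 0.00191), Mcm3 (1.18 ± 0.20, adjusted p = 0.00131), Tk1 (1.10 ± 0.27, adjusted p = 0.00841) and Cdc6 (1.05 ± 0.37, adjusted p = 0.0453) had the largest among S-phase members. The call of Cdc6 was lost without cGAS-KO replicate 1 and without either STING-KO replicate. The count was 9 with only the 4 libraries compared, 10 without cGAS-KO replicate 1 (9 higher, and Ccne2 lower) and 12 without STING-KO replicate 2 (11 higher, and Mcm4 lower).

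**Figure D4:**
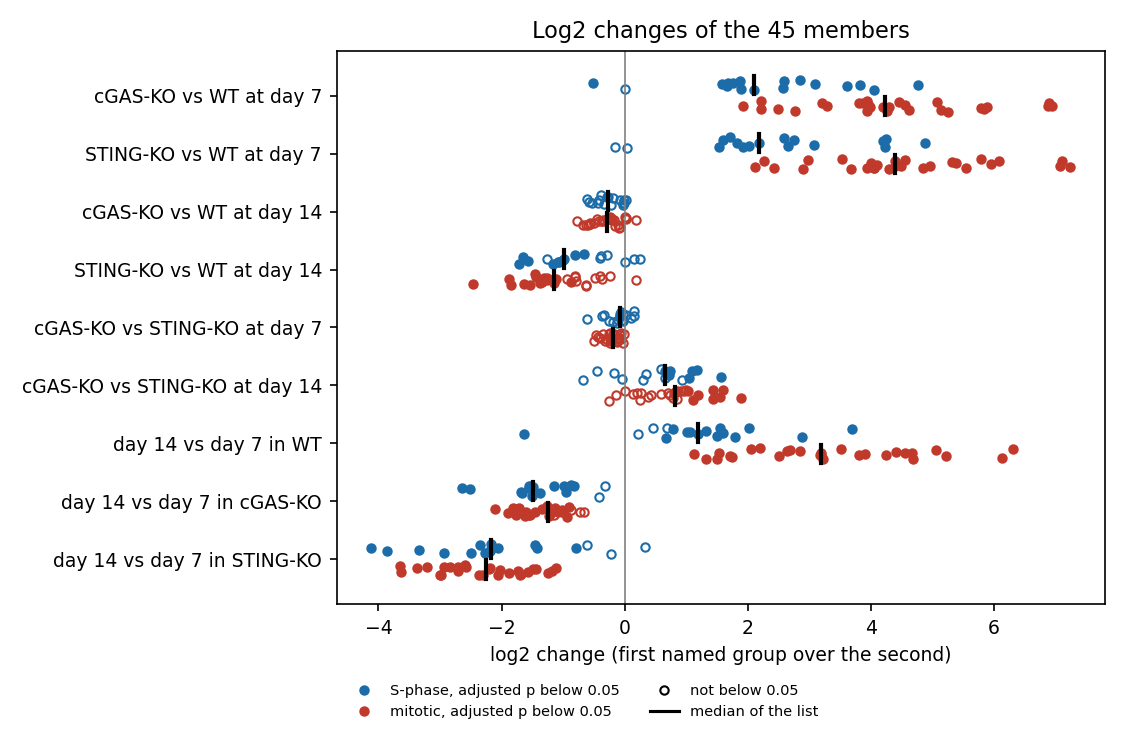
Log2 changes (horizontal axis) of the 45 members in the 9 comparisons between groups, blue for S-phase and red for mitotic members; filled points passed an adjusted p of 0.05, open points did not, and black lines are medians. Blue and red medians differ by about 2 in the 3 comparisons that include 7-day WT (rows 1, 2 and 7) and by 0.25 at most in the other 6.

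S-phase and mitotic members differed in their median log2 change where the 7-day WT libraries were compared. The S-phase median minus the mitotic median was -2.12 for cGAS-KO against WT at day 7, -2.21 for STING-KO against WT at day 7 and -2.00 for day 14 against day 7 in WT. Without the 9 mitotic members low in 7-day WT it was -1.83, -1.86 and -1.44. In the 6 comparisons without those libraries this difference ran from -0.25 to 0.16. In group means, a mitotic member in 7-day WT had a median of 5.34% of its level in 7-day cGAS-KO, an S-phase member 23.2%. No test is given for these medians, because members were listed with earlier results of these data known.

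The course between days differed in direction by genotype. In WT 41 members were higher at day 14 than at day 7 and 1 lower, where 24.1% of all genes were higher and 19.7% lower (43.9% in all). All 28 mitotic members rose, with a median of 3.19, and 13 of 17 S-phase members rose, with a median of 1.19, beside 0.07 for all genes. Without the 9 members low in 7-day WT, 19 of 19 mitotic members rose, with a median of 2.63. Top2a (6.31 ± 0.44), Ube2c (6.14 ± 0.51), Cdk1 (5.23 ± 0.45) and Ccnb1 (5.05 ± 0.56) had the largest changes among mitotic members, and Ube2c ran from 5.41 to 7.76 as single libraries were left out. Rrm2 (3.70 ± 0.34, adjusted p = 1.11e-05), Mcm3 (2.88 ± 0.22, adjusted p = 4.79e-06), Cdt1 (2.02 ± 0.30, adjusted p = 0.000255) and Tk1 (1.79 ± 0.26, adjusted p = 0.00021) rose most among S-phase members. The member that fell was Ccne1 (-1.63 ± 0.21, adjusted p = 0.000107), while E2f1 (0.46 ± 0.26, adjusted p = 0.179), Gins2 (0.68 ± 0.47, adjusted p = 0.259) and Ccne2 (0.22 ± 0.27, adjusted p = 0.538) did not pass.

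In cGAS-KO 39 members fell between days and 0 rose, where 17% of all genes fell and 13.4% rose (30.4% in all). Medians were -1.49 for S-phase members (15 of 17 lower) and -1.25 for mitotic members (24 of 28 lower), beside -0.01 for all genes. Tk1 (-2.65 ± 0.21, adjusted p = 2.04e-05), Gins2 (-2.51 ± 0.38, adjusted p = 0.000591), Mcm2 (-1.69 ± 0.22, adjusted p = 0.000261) and Cdt1 (-1.67 ± 0.24, adjusted p = 0.000399) fell most among S-phase members. Birc5 (-2.11 ± 0.35, adjusted p = 0.00109), Aurkb (-1.89 ± 0.21, adjusted p = 0.000105), Plk1 (-1.81 ± 0.29, adjusted p = 0.000862) and Ccnb2 (-1.77 ± 0.31, adjusted p = 0.00171) fell most among mitotic members. In STING-KO 42 members fell and 0 rose, where 29.5% of all genes fell and 27.4% rose (56.9% in all). All 28 mitotic members fell, with a median of -2.25, and 14 of 17 S-phase members, with a median of -2.18, beside -0.04 for all genes. Tk1 (-4.11 ± 0.24, adjusted p = 2.8e-07), Cdt1 (-3.86 ± 0.28, adjusted p = 8.91e-07), Gins2 (-3.34 ± 0.44, adjusted p = 5.8e-05) and Mcm3 (-2.93 ± 0.21, adjusted p = 7.96e-07) fell most among S-phase members. Cdk1 (-3.64 ± 0.28, adjusted p = 1.21e-06), Bub1b (-3.64 ± 0.29, adjusted p = 1.5e-06), Aurkb (-3.38 ± 0.25, adjusted p = 9.76e-07) and Birc5 (-3.21 ± 0.38, adjusted p = 2.83e-05) fell most among mitotic members. Mcm4 (-0.22 ± 0.19, adjusted p = 0.344), Hells (-0.62 ± 0.29, adjusted p = 0.0928) and Ccne2 (0.33 ± 0.27, adjusted p = 0.314) did not pass. In group means, the median member kept at day 14 in cGAS-KO 35.5% (S-phase) and 42.0% (mitotic) of its 7-day level, and in STING-KO 22.2% and 20.9%. Ccne1 fell in all 3 genotypes, with log2 changes of -1.15 ± 0.21 in cGAS-KO and -1.46 ± 0.22 in STING-KO (adjusted p = 0.00215 and 0.00014).

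The effect of each knockout label was tested between days as a difference of differences. For cGAS-KO 43 members differed, each with the lower effect at day 14, where 21% of all genes were lower and 15.7% higher (36.7% in all). For STING-KO 43 members differed in the same direction, where 27.6% of all genes were lower and 24.3% higher (51.9% in all). Ccne1 and Ccne2 were the 2 members that did not pass in either test. The difference of the change over time between cGAS-KO and STING-KO does not use the WT libraries. It passed for 10 of 45 members, each with the smaller fall in cGAS-KO, where 10.7% of all genes were higher and 8.59% lower (19.3% in all). They were Mcm3, Cdt1 and Tk1 among S-phase members and Mki67, Cdk1, Bub1b, Aurkb, Tpx2, Ube2c and Foxm1 among mitotic members, with the largest values for Cdt1 (2.18 ± 0.36, adjusted p = 0.00312) and Bub1b (2.02 ± 0.38, adjusted p = 0.00477).

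The lowest groups, 7-day WT and 14-day STING-KO, differ in both day and genotype and were set side by side with no test. Both 7-day WT libraries lay below both 14-day STING-KO libraries in 26 of 28 mitotic members, and above them in Bub1b. Among S-phase members 11 of 17 lay below, 3 lay above (Mcm6, Gins2 and Ccne1) and 3 overlapped. The share of all genes that separate in this way was not counted, so these counts describe the members only. A mitotic member in 7-day WT had a median of 21.8% of its level in 14-day STING-KO, and an S-phase member 77.0%.

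Other genes of the cycle were taken from 4 lists drawn up from textbook roles with earlier results known. Of 36 further replication genes 31 were higher at day 7 in cGAS-KO and 31 in STING-KO, with 0 lower in either (medians 1.61 and 1.73), where 27.8% and 26.3% of all genes were higher. Uhrf1, which carries DNA methylation through replication, had 1.23 and 0.971 CPM in 7-day WT, 38.9 and 31.3 CPM in cGAS-KO (log2 change 4.99 ± 0.39, adjusted p = 1.35e-06) and 35.9 and 41.5 CPM in STING-KO (log2 change 5.13 ± 0.39, adjusted p = 1.08e-06). Of 58 further mitotic genes 53 and 54 were higher and 1 lower in each (medians 3.32 and 3.58). In 7-day WT the median log2 CPM of these 58 was -0.20 and -0.08, with 3 and 2 genes at 0. Genes of either list under 0.565 CPM in both 7-day WT libraries, such as Exo1 and Kif18b, passed the filter only through other groups. Their calls were fixed in advance, and counts without them are not given. Kif18b, a kinesin that shortens microtubules, had at day 7 0.168 and 0.256 CPM (WT), 10.6 and 9.88 CPM (cGAS-KO) and 12.05 and 11.7 CPM (STING-KO). At day 14 in STING-KO 30 of these 58 were lower than in WT and 1 higher, and of the 36 replication genes 8 were lower and 1 higher, where 17.4% of all genes were lower and 16.5% higher. The replication gene that was higher was Clspn, the checkpoint mediator claspin, with 17.7 and 17.2 CPM in 14-day STING-KO against 5.72 and 4.61 CPM in 14-day WT (log2 change 1.76 ± 0.25, adjusted p = 0.000373).

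Genes of G1 entry and genes that restrain the cycle were counted beside the shares of all genes at day 7, 27.8% higher and 22.4% lower in cGAS-KO and 26.3% higher and 22.6% lower in STING-KO. Of 16 G1 genes 11 were higher and 2 lower at day 7 in cGAS-KO, and 12 higher and 2 lower in STING-KO (medians 1.56 and 1.64). Among those higher, E2f7 had 0.280 and 0.307 CPM in 7-day WT and passed the filter only through other groups, so it had to differ. Ccnd1, cyclin D1, had 23.9 and 30.3 CPM in 7-day WT, 95.0 and 80.2 CPM in cGAS-KO (log2 change 1.69 ± 0.26, adjusted p = 0.00021) and 84.7 and 116 CPM in STING-KO (log2 change 1.89 ± 0.26, adjusted p = 0.000102). Cdk2, the partner of cyclin E, had at day 7 3.93 and 3.94 CPM (WT), 42.5 and 30.8 CPM (cGAS-KO) and 33.6 and 37.9 CPM (STING-KO), with log2 changes of 3.22 ± 0.25 in cGAS-KO and 3.18 ± 0.25 in STING-KO beside the values of Ccne1 and Ccne2 above. Ccnd2, cyclin D2, rose between days in all 3 genotypes, with log2 changes of 1.03 ± 0.19, adjusted p = 0.00125 in WT, 1.33 ± 0.20, adjusted p = 0.000528 in cGAS-KO and 1.96 ± 0.20, adjusted p = 9.51e-06 in STING-KO. Of 24 genes that restrain the cycle 14 were higher and 1 lower at day 7 in cGAS-KO (median 0.64). In STING-KO 13 were higher and 0 lower (median 0.61). Cdkn2a of this list had 0.168 and 0 CPM in 7-day WT and passed the filter only through other groups. Its outcome against 7-day WT was therefore fixed in advance. Cdkn1a, the inhibitor p21, had 13.9 and 15.2 CPM in 7-day WT, 55.9 and 49.3 CPM in cGAS-KO (log2 change 1.86 ± 0.25, adjusted p = 8.23e-05) and 119 and 82.1 CPM in STING-KO (log2 change 2.79 ± 0.26, adjusted p = 4.57e-06). At day 14 Cdkn1a had 36.0 and 34.7 CPM (WT), 31.7 and 28.1 CPM (cGAS-KO) and 8.999 and 16.6 CPM (STING-KO), where STING-KO overlapped 7-day WT. Cdkn2c, the Cdk4 and Cdk6 inhibitor p18, and Rbl1, the DREAM subunit p107, had log2 changes at day 7 of 3.84 ± 0.26 and 3.28 ± 0.21 in cGAS-KO and 3.95 ± 0.26 and 3.37 ± 0.21 in STING-KO. Rb1, the retinoblastoma gene, had a log2 change of 0.45 ± 0.14, adjusted p = 0.021 in cGAS-KO at day 7, a call that was lost on leaving out any of its 4 libraries.

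Markers of several cell types moved in the same comparisons, and no marker of the lists named here was at 0 unless said. Their counts stand beside 50.3% of all genes called in cGAS-KO and 48.9% in STING-KO at day 7, and 33.9% in STING-KO at day 14. At day 7, 12 of 12 microglia markers were higher in cGAS-KO and in STING-KO, and their summed level was 318 to 336 CPM in WT, 3197 to 3606 CPM in cGAS-KO and 3892 to 4392 CPM in STING-KO. At day 14 the sum was 2679 to 2795 CPM in WT, 2284 to 2322 CPM in cGAS-KO and 601 to 1142 CPM in STING-KO, where 12 of 12 were lower than in WT. The 14 markers of activated phagocytes, among them Apoe, Spp1 and Gpnmb, summed to 1969 to 2116 CPM in 7-day WT, 32591 to 37911 CPM in 7-day cGAS-KO and 49183 to 50847 CPM in 7-day STING-KO. At day 14 they summed to 11487 to 11912 CPM in WT, 9803 to 10697 CPM in cGAS-KO and 1071 to 2717 CPM in STING-KO. Monocyte and macrophage markers, 11 of 11 higher in cGAS-KO and 9 of 11 in STING-KO at day 7, summed to 6.14 to 12.7 CPM in 7-day WT, 207 to 339 CPM in the 7-day groups labelled knockout and 10.8 to 64.5 CPM at day 14, with Chil3, Lyve1 or Arg1 at 0 in single libraries. Most of these markers, among them Ccr2, Ms4a7 and Pf4, lay under 0.565 CPM in both 7-day WT libraries. They entered the tests only through other groups, so their calls were largely fixed in advance. The same holds for any marker of the other lists under that level there. Fibroblast markers, 9 of 10 higher at day 7 in each knockout label, summed to 164 to 170 CPM in 7-day WT, 3627 to 6070 CPM in 7-day cGAS-KO, 2526 to 3333 CPM in 7-day STING-KO and 197 to 614 CPM at day 14, with Dpt at 0 in 3 libraries. Choroid plexus markers, 10 of 10 higher, summed to 81.9 to 146 CPM in 7-day WT, 2597 to 4662 CPM in the 7-day groups labelled knockout and 59.7 to 715 CPM at day 14. Neuronal markers were lower in 10 of 10, and summed to 10718 to 11755 CPM in 7-day WT, 1800.2 to 2908 CPM in the 7-day groups labelled knockout and 2840.2 to 5671 CPM at day 14. Of 10 endothelial markers 9 were higher in each knockout label at day 7, of 8 pericyte and muscle markers 8 in cGAS-KO and 6 in STING-KO, and of 10 markers of oligodendrocyte precursors 6 and 8. Of 10 astrocyte markers 6 were higher and 2 lower in cGAS-KO, and 7 higher and 1 lower in STING-KO. Neural progenitor and oligodendrocyte sums departed from the order of the members. Progenitor sums were 404 to 418 CPM in 7-day WT, 350 to 382 CPM in the 7-day groups labelled knockout and 427 to 702 CPM at day 14. Progenitor mean log2 CPM was 3.99 and 4.08 in 7-day WT and 4.09 to 4.51 in those groups. Oligodendrocyte sums were 5488 to 8065, 12112 to 18753 and, at day 14, 9374 to 32303 CPM. Markers of T and NK cells, neutrophils and B cells had sums of at most 46.9, 34.8 and 13.6 CPM in any library, and several of their defining genes, such as Ly6g, Cd3d and Ms4a1, were at 0 in some libraries. The part of these cell types in the levels of the members was not tested.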

How the data were processed

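The authors deposited raw counts per gene, 1 table for each of 12 libraries; per the submitters' processing notes reads were aligned with HISAT2 to mm10 and counted with featureCounts, whose versions, annotation and strand setting are not given in the sources used here. Of 54532 gene identifiers 54495 had a symbol in GENCODE M21. The members and all lists were chosen with earlier results of these data known.

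Counts were tested with edgeR 4.0.16 (R 4.3.3): TMM scaling, a filter on low counts (minimum 10 a library, 15 in total), the quasi-likelihood F-test (robust) over all 12 libraries in 6 groups (6 residual degrees of freedom), and Benjamini-Hochberg adjustment over 19822 genes at 0.05. The SE is the log2 change divided by the square root of F. CPM uses TMM-scaled totals, and log2 CPM adds 0.5 counts. The script was checked on simulated counts. Alternatives were DESeq2 1.42.0, its size factors, no filter or a stricter one, only the libraries compared, the legacy quasi-likelihood form, a replicate block, each library left out in turn, and, added after the data were seen, fits without the 7-day WT or the 14-day STING-KO group and lists without the members low in 7-day WT.

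Levels in every library are given for 20 index members. For each comparison the 4 called members of each phase with the largest log2 change are named, with any called against its phase, and up to 4 genes of each other list with the smallest adjusted p, plus Cdkn1a, Ccnd1 and Rb1. Others named were chosen after their values were seen. Figures were drawn with matplotlib 3.10.9.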

Additional observations from a re-analysis of the deposited data

Results flagged for a closer look

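A knockout label that went with higher levels at day 7 and with no call or with lower levels at day 14 gave large differences between days. In edgeR's test of that difference 43 members differed for cGAS-KO and 43 for STING-KO, where 36.7% and 51.9% of all genes passed. Without the 9 mitotic members low in 7-day WT, 34 members differed for each label. Both differences use the same WT libraries. For cGAS-KO the log2 difference of the effect, day 14 minus day 7, was -7.21 for Top2a, -7.16 for Ube2c, -6.97 for Cdk1 and -6.31 for Aurkb among mitotic members. Among S-phase members it was -5.21 for Rrm2, -4.44 for Mcm3, -4.43 for Tk1 and -3.69 for Cdt1. For STING-KO it was -8.98 for Ube2c, -8.87 for Cdk1, -8.19 for Top2a and -7.79 for Aurkb, and -5.97 for Rrm2, -5.90 for Tk1, -5.88 for Cdt1 and -5.81 for Mcm3. Cdk1, Ube2c and Aurkb, which are among those 9, had at most 6 counts in a 7-day WT library, and Top2a had 9 and 12. With SE, the values of Cdk1 and Ube2c for STING-KO were -8.87 ± 0.52 and -8.98 ± 0.60. The Ube2c value ran from -10.6 to -8.26 as single libraries were left out.

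The change from day 7 to day 14 differed between cGAS-KO and STING-KO in 10 of 45 members, each higher in cGAS-KO, where 10.7% of all genes were higher and 19.3% passed in all. The difference, cGAS-KO minus STING-KO, was 2.18 for Cdt1, 1.47 for Tk1 and 1.37 for Mcm3 among S-phase members, and 2.02 for Bub1b, 1.89 for Cdk1, 1.83 for Ube2c and 1.63 for Foxm1 among mitotic members. Each had fallen in both genotypes, and further in STING-KO.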

How the results depend on the processing

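Counts of called members moved most at day 14. With only the libraries compared in the fit, 18 members in place of 27 passed for STING-KO against WT and 9 in place of 18 for cGAS-KO against STING-KO; these fits hold 4 libraries. As single libraries were left out, these counts ran from 13 to 26 and from 10 to 20, those over time in cGAS-KO from 29 to 41, and those of the difference over time between the knockout labels from 9 to 15. Among alternative values of counts of called members 166 stayed within 1.5 times and 4 did not. The S-phase minus mitotic difference was less stable. Of its alternative values 109 stayed within 1 pooled SD (0.18) of the main value. The other 20 did not, and they lie in 8 of 9 comparisons. The S-phase minus mitotic difference kept its sign in the 3 comparisons with 7-day WT as libraries were left out, at -2.33 to -1.81 for cGAS-KO and -2.42 to -2.04 for STING-KO against WT at day 7, and -2.07 to -1.97 over time in WT. Elsewhere it ran from -0.21 to 0.41 (cGAS-KO against WT at day 14), 0.011 to 0.63 (STING-KO against WT at day 14), -0.57 to 0.091 (cGAS-KO against STING-KO at day 14), -0.30 to 0.072 (over time in cGAS-KO) and -0.13 to 0.62 (over time in STING-KO), so its sign turned in these other than STING-KO against WT; for cGAS-KO against STING-KO at day 7 it was 0.040 to 0.194. Without the 9 mitotic members low in 7-day WT, an alternative added after the data were seen, it was -1.83 and -1.86 for cGAS-KO and STING-KO against WT at day 7, -1.44 over time in WT, and -0.052 in place of 0.16 for STING-KO against WT at day 14. With means in place of medians it was -0.030 over time in cGAS-KO and 0.29 in STING-KO; the cause was not tested. Of 3074 alternative values of single genes 69 lost their call and 0 reversed, and the 69 lie in 16 of 246 results, among them Ccne1 and Rb1 in cGAS-KO at day 7 and Top2a, Mcm5 and Tyms at day 14. Depth limits the mitotic members in 7-day WT, where 10 had under 10 counts in a library. With the replicate number as a block, 29 members passed for STING-KO against WT at day 14, 18 for cGAS-KO against STING-KO and 15 for the difference over time. Same-numbered libraries deviated together by correlations of -0.073 to 0.165. With 2 libraries a group, these values do not settle whether the numbers pair the libraries. At day 14, replicate 1 was higher in 23, 26 and 24 of 28 mitotic members in WT, cGAS-KO and STING-KO. At day 7 it was higher in 13, 23 and 18 of 28 in the same order.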
